A study of Homo sapiens with 7 samples.

Results

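The hepatic serpin genes are 10 genes that encode plasma proteins made mainly by the liver. They were taken from the HepG2 expression table as the entries that carry one of 10 listed symbols, namely SERPINA1, SERPINA3, SERPINA4, SERPINA5, SERPINA6, SERPINA10, SERPINC1, SERPIND1, SERPINF2 and SERPING1. All 10 were found among 21913 named genes. HepG2 is an established human liver cancer cell line, and the study mapped nucleosome positions and 5 histone modifications at single-nucleosome resolution together with gene expression in freshly cultured cells. The 7 samples, 1 for each assay, were RNA-Seq, MNase-Seq of native chromatin, and ChIP-Seq of the acetylations H3K9ac and H3K27ac and of the methylations H3K4me3, H3K9me3 and H3K27me3. The RNA-Seq values were given in 2 columns, here called run 1 and run 2. Whether these are separate cultures is not stated in the sources used here, so the spread between them may be technical, and no test was possible. HepG2 is a single tumour line and not normal liver.

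Serpins are serine protease inhibitors that trap their target protease by a large change of shape after the protease cuts an exposed loop. The liver secretes several of them into plasma, where they hold back proteases of inflammation, clotting, fibrinolysis and complement. A few have lost the inhibitory function and carry hormones instead. H3K4me3, H3K9ac and H3K27ac are marks of active promoters, H3K27ac alone is also found at enhancers, and H3K27me3 and H3K9me3 are marks of repressed chromatin.

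The label was checked against hepatocyte markers, and 10 of 10 were expressed, from 56.6 FPKM for FGB to 10011 FPKM for ALB, with a median of 1340 FPKM. FPKM are fragment counts normalised to transcript length and to the number of mapped fragments, and a gene was called expressed at an FPKM of at least 1. Of 13 markers of other cell types, 10 were below this limit and 4 of those were listed at 0, PTPRC and CD3E among them. The other 3 were CD68 at 543 FPKM, INS at 192 FPKM and ACTA2 at 33.9 FPKM, and each of them shares its listed coordinates with other loci. Their part in the values was not tested.

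Promoter sequence was available for 7 of the 10 genes in RefSeq (GRCh38.p14), with the 250 bases before 9 starts. SERPINC1, SERPINF2 and SERPING1 had no entry. Both starts of SERPINA1 are shown because the marks described later differ between them, and SERPINA5 and SERPINA6 are shown because their promoters hold letters that acute-phase or liver factors are known to bind, which are in capitals. SERPINA1 is on the minus strand, and its windows are chr14:94390636-94390885 (first start) and chr14:94388603-94388852 (second start). The others are chr14:94581176-94581425 on the plus strand for SERPINA5 and chr14:94323337-94323586 on the minus strand for SERPINA6.
SERPINA1 first start: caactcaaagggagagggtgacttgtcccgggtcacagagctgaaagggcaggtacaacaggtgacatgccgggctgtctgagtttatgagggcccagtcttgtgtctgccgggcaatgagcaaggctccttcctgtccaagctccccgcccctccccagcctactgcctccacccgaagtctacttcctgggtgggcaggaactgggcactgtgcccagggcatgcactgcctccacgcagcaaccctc
SERPINA1 second start: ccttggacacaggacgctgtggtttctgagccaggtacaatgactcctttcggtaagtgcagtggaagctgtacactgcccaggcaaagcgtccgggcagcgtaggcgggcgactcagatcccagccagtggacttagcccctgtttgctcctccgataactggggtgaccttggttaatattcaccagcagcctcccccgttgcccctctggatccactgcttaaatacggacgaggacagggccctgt
SERPINA5: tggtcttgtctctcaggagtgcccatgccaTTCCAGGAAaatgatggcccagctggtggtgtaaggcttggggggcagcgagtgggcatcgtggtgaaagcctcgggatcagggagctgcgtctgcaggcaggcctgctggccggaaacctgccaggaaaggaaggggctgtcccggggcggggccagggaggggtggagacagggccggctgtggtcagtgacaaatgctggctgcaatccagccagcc
SERPINA6: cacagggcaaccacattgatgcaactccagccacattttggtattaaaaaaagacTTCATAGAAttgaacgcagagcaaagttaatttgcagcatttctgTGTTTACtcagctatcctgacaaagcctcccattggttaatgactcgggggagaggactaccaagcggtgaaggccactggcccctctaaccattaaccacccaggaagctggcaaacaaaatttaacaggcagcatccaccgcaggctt

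The letters TTCNNNGAA (STAT), searched like the next ones on both strands, were found before 2 of 9 starts, against 6.57% of 35114 RefSeq promoters of the same length. They lay 220 to 212 bases before SERPINA5 and 195 to 187 bases before SERPINA6. TGTTTAC (FOXA) was in 1 of 9, 150 to 144 bases before SERPINA6, against 2.98%. TTNNGCAA (C/EBP) was in 1 of 9, before the second start of SERPINA10, against 9.05%, and CAAAGTCCA (HNF4) was in 0 of 9, against 0.325%. The letters TATAAA, searched on the gene's strand, were in 0 of 9, against 6.8%. Neither start of SERPINA1 held any of these letters. GC content was lowest for SERPINA3 and highest for SERPINA5, at 64.4%, and the median of all promoters was 58.0%. A match describes the letters only and does not show that a factor was bound.

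All 10 hepatic serpin genes were expressed in HepG2, against 54.6% of all named genes. At least 10 FPKM was reached by 9 of 10, against 31.5%, and at least 100 FPKM by 7 of 10, against 3.86%. Their median was 157.3 FPKM, whereas the median of all named genes was 2.15 FPKM, or 6.01 FPKM over the 17362 genes above 0. Together they summed to 2124 FPKM, and SERPINA1 gave 49.9% of this sum.

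Among the inhibitors of inflammatory proteases, SERPINA1 encodes alpha-1-antitrypsin, the main plasma inhibitor of neutrophil elastase, and SERPINA3 encodes antichymotrypsin, which inhibits cathepsin G. SERPINA1 was at 1064 FPKM in run 1 and 1058 FPKM in run 2, rank 74 of all named genes. SERPINA3 was at 250.1 and 261.8 FPKM, rank 286. The mean of SERPINA1 was 4.14 times that of SERPINA3, and the runs of both genes were far apart. SERPINA4 encodes kallistatin, an inhibitor of tissue kallikrein, and was at 15.7 and 16.5 FPKM, well below both.

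Of the genes for regulators of clotting, SERPINC1 encodes antithrombin, the main inhibitor of thrombin and factor Xa, and SERPIND1 encodes heparin cofactor II, which inhibits thrombin. SERPINC1 was at 151.9 and 153.3 FPKM and SERPIND1 at 103.3 and 105.0 FPKM. SERPINA5, which encodes the protein C inhibitor, was at 192.6 and 191.1 FPKM. SERPINA10 encodes the inhibitor that needs protein Z to act on factor Xa, and its 14.5 and 14.2 FPKM made it the lowest of these 4.

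SERPINF2 encodes antiplasmin, the main inhibitor of plasmin in fibrinolysis, and was at 164.5 and 159.9 FPKM. SERPINA6 encodes corticosteroid-binding globulin, a carrier of cortisol that does not inhibit proteases, and was at 164.2 and 159.9 FPKM. These genes, which lie on different chromosomes, were the only neighbours in the order of levels whose runs overlapped. SERPING1 encodes the C1 inhibitor of the complement and contact systems and was the lowest of the 10, at 4.16 and 3.79 FPKM, although still above the median of all named genes. The difference between its runs was 9.53% of their mean, the widest among the 10, and the median of the 10 was 2.36% against 4.3% over all expressed named genes. The order of mean levels was SERPINA1, SERPINA3, SERPINA5, SERPINF2, SERPINA6, SERPINC1, SERPIND1, SERPINA4, SERPINA10 and SERPING1. The widest step lay between SERPIND1 and SERPINA4, a ratio of 6.47, and splits the 7 genes above 100 FPKM from 3 at 16.1 FPKM or lower.

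**Figure D1:**
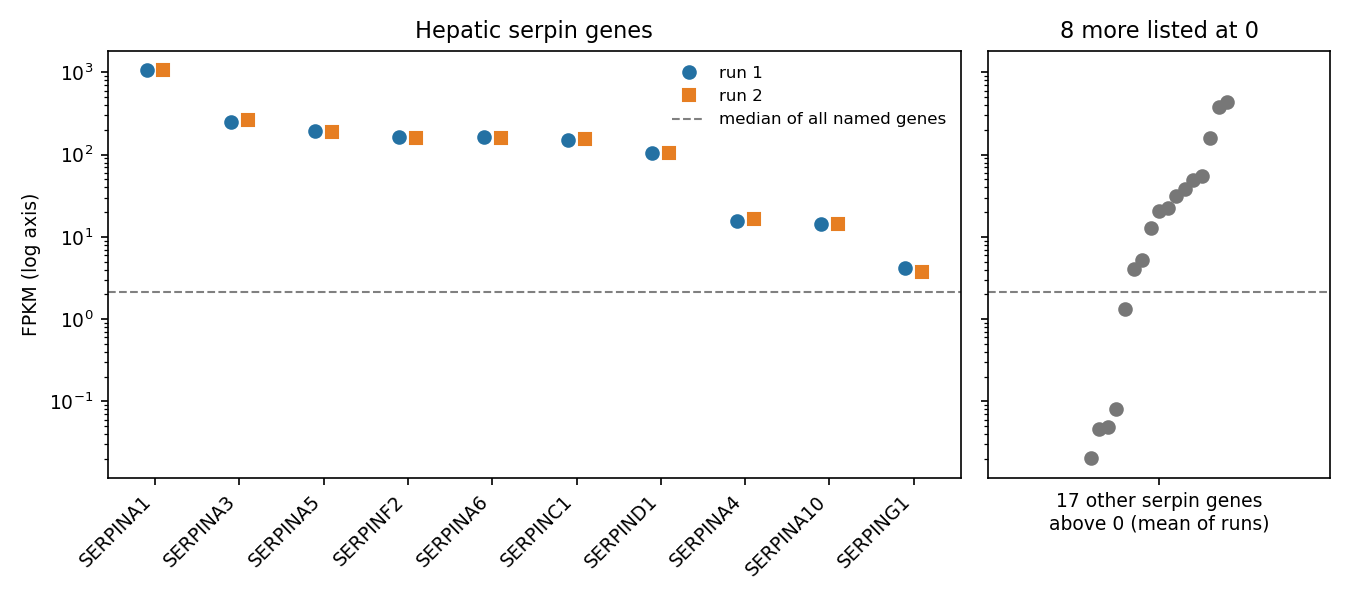
FPKM (log axis) of the 10 hepatic serpin genes in run 1 (circles) and run 2 (squares), beside the mean of both runs for 17 other serpin genes above 0. The dashed line is the median of all named genes, 2.15 FPKM, and all 10 lie above it.

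Reads from genes that overlap on opposite strands could not be told apart, because strand use in counting is not stated. Reads shared with near-identical gene copies were not tested. The listed coordinates of 4 genes were shared with another locus, which does not by itself show that the genes overlap. How reads were divided within such a locus was not tested. SERPINA3 and SERPINA5, both on the plus strand, share chr14:95047545-95090395. SERPINA10 shares chr14:94640632-94759956 with PPP4R4, and SERPIND1 shares chr22:21061946-21246684 with PI4KA and SNAP29. SERPIND1 lies inside PI4KA, which is on the opposite strand and was at 10.2 FPKM. Coordinates are those of the hg19 build, counted from 1. The other loci are chr14:94843084-94857029 for SERPINA1, chr14:95027260-95036919 for SERPINA4, chr14:94770585-94789688 for SERPINA6, chr1:173872942-173886516 for SERPINC1, chr17:1646130-1658559 for SERPINF2 and chr11:57365027-57382326 for SERPING1.

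Chromatin at the hepatic serpin genes carried active marks and almost no repressive marks. A position was called marked where a peak of a histone modification had been called on it, and trivalent where H3K4me3, H3K9ac and H3K27ac were all called on it. Over each locus plus 10 kb on either side, all 10 genes had at least 1 trivalent position, against 64.3% of all named genes. All 10 had H3K27ac, against 68.8%, H3K4me3, against 74.6%, and H3K9ac, against 74.6%. H3K27me3 was on none of them, against 31.1%. H3K9me3 was on 2, SERPINA10 and SERPIND1, with 1 position each, against 31.8%. These H3K9me3 positions lay 97.1 kb and 117.6 kb downstream of the start of each gene.

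The windows held 3124 nucleosome positions, counted once where windows overlap, and 193 of them were marked. This is 6.18% (exact Clopper-Pearson 95% interval 5.36 to 7.08), and 1.92% (1.91 to 1.93) over the windows of all named genes. The intervals cover counting error only, neighbouring positions are not independent, and the lists give no read count for a single position. H3K27ac was on 131 positions, 4.19% against 1.05% over all named genes. H3K4me3 was on 111, 3.55% against 1.04%, and H3K9ac was on 83, 2.66% against 0.901%. H3K27me3 was on 0 of 3124 positions, against 0.162%, and H3K9me3 on 2, 0.064% against 0.165%. The windows of the 10 genes were shorter, with a median of 38.2 kb against 57.1 kb, and a share over a short window weighs the start more. The pooled share, however, counts positions, and most lay in the long windows of SERPINA10 and SERPIND1, which cover PPP4R4, PI4KA and SNAP29. These windows held 723 and 1075 positions, of which 3.6% and 4.56% were marked.

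The most frequent combination was H3K27ac alone, on 60 of the 193 marked positions, or 31.1% (24.6 to 38.1), against 20% over all named genes. Trivalent positions were 47, or 24.4% (18.5 to 31.0), against 28.1%, and H3K4me3 alone was on 41, or 21.2% (15.7 to 27.7), against 14.1%. H3K9ac with H3K27ac but no H3K4me3 was on 17, or 8.81% (5.22 to 13.7), against 4.22%. H3K4me3 with H3K9ac was on 16, or 8.29% (4.81 to 13.1) against 9.63%, H3K4me3 with H3K27ac on 7, or 3.63% (1.47 to 7.33) against 2.29%, and H3K9ac alone on 3, or 1.55% (0.322 to 4.48) against 4.78%. H3K27me3 alone was on 0, against 7.92%, and H3K9me3 alone on 2, or 1.04%, against 8.22%. The intervals of H3K27ac alone, of H3K4me3 alone and of both acetylations without H3K4me3 lay above the share of all named genes, that of H3K9ac alone lay below it, and that of the trivalent positions held it. These are shares of all marked positions, so having few repressive marks raises every other share. Over active marks alone the shares of all named genes would be higher, because H3K27me3 alone and H3K9me3 alone took 7.92% and 8.22% there. The comparison was not repeated over active marks alone, so the placement of the intervals, that of the trivalent positions included, may not hold there.

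Marks were sorted by place, with the start of a gene taken from the listed end of its locus and its strand. For 3 genes the listed end is not the start that the marks surround, and the start was set by distances between RefSeq starts, with no coordinate converted between builds. The second start of SERPINA1 lies 2033 bp downstream of the first, the start of SERPINA3 lies 30965 bp downstream of that of SERPINA5, and the start of SERPIND1 lies 66422 bp from the lower end of PI4KA. Listed and RefSeq spans differed by 57 bp for SERPINA1, 223 bp for SERPINA3 with SERPINA5, and 1215 bp for the SERPIND1 locus. These starts are therefore uncertain, and a difference in span does not bound the error of a start inside it. The listed span of SERPINA4 was 1195 bp longer than in RefSeq, and that of PPP4R4 with SERPINA10 was 378 bp longer. Distances from the listed starts of SERPINA4 and SERPINA10 therefore carry a like uncertainty. The starts set by distance were chosen after the marks had been seen.

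Within 2 kb of a start of these 10 genes lay 96 of the 193 marked positions, or 49.7% (42.5 to 57.0). The starts set by distance were chosen with the marks in view, and both starts of SERPINA1 were counted. Nearness to a start is therefore partly built in. Within 2 kb of the listed starts alone, 66 positions were marked, and SERPINA1 and SERPIND1 had 0 trivalent positions there. Another 26 lay within 2 kb of the start of another named gene and 71 lay elsewhere. Of the 47 trivalent positions, 33 were by a start of these 10 genes, 13 by another gene's start and 1 elsewhere. Of the positions with H3K27ac alone, 40 of 60 (66.7%, 53.3 to 78.3) lay elsewhere, 20 by a start of the 10 genes and 0 by another gene's start. The 40 include 4 that continue the stretch by the listed start of SERPINF1, just beyond the 2 kb limit. The places differ in size. With the starts set by distance, 16 to 23 positions per gene lay within 2 kb, whereas all windows together held 3124. The split of counts therefore does not show that H3K27ac alone avoids starts.

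**Figure D2:**
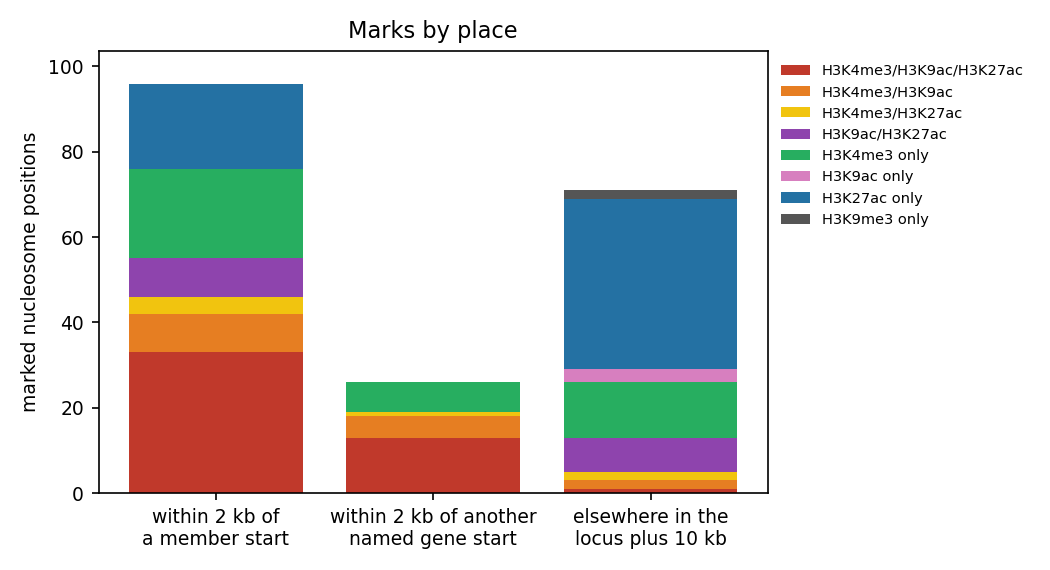
Number of marked nucleosome positions by place, with the colours giving the exact set of marks on a position. The starts include those set by distance, which were chosen with the marks in view. Trivalent positions make up 33 of 96 positions near a start of the 10 genes and 1 of 71 elsewhere, and H3K27ac alone makes up 40 of those 71. The places hold unlike numbers of nucleosome positions, so the bars are counts and not rates.

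Each gene was then followed from its start. With the starts as listed, 8 of the 10 had at least 1 trivalent position within 2 kb. Among genes with a locus of their own this was 5 of 6, against 43.4% of 14228 such genes, and at least 3 were found for 3 of 6, against 28.1%. With the starts set by distance it was 10 of 10, with at least 3 for 7 of 10, but the 3 moved starts were picked with the marks in view and no other gene was treated in this way, so nothing is read from this rise.

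SERPINA1 had few marks at its first start and many at its second. Within 2 kb of the first start, 3 positions of 21 were marked, all with H3K27ac alone. From 285 to 930 bp downstream of the second start lay 5 trivalent positions, followed by 2 with H3K4me3 and H3K9ac, and by 6 with H3K4me3 alone from 1590 to 3090 bp. In all, 12 of 19 positions within 2 kb of it were marked, and 18 of 179 (10.1%, 6.07 to 15.4) over the whole window.

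SERPINA3 had the most trivalent positions by its own start. The stretch chr14:95078767-95082676 held 18 marked positions from 326 to 4096 bp downstream. First came 6 trivalent positions, and then, in mixed order, 4 with H3K4me3 and H3K9ac and 8 with H3K4me3 alone. SERPINA5, which lies before it on the same strand, had 8 marked positions in chr14:95047452-95049131, of which 2 were trivalent and 5 carried H3K4me3 alone. Between both starts, 17.5 to 19.2 kb downstream of SERPINA5, a stretch of 6 marked positions included 3 with H3K27ac alone and 1 trivalent position. The shared window of both genes was 10.5% marked (7.48 to 14.3), 36 of 342 positions.

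SERPINA4 and SERPINA10 carried trivalent positions without a tail of H3K4me3 alone. SERPINA4 had 5 marked positions from 151 to 919 bp downstream, 2 with H3K27ac alone and then 3 trivalent. SERPINA10 had 12 marked positions from 45 to 2165 bp downstream, of which 5 were trivalent and 5 carried both acetylations without H3K4me3. Another stretch in its window, 15.9 to 16.5 kb downstream, held H3K27ac on 4 positions and lies in the span shared with PPP4R4. Hence, 5 trivalent positions lay by the start of a gene at 14.4 FPKM, as many as by SERPINA1 at 1061 FPKM.

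SERPINA6 had 12 marked positions in chr14:94786922-94790333, with 2 trivalent positions at 72 and 287 bp downstream and H3K27ac alone on 4. SERPINC1 had trivalent positions on both sides of its start, at 190 bp, -470 bp and -980 bp (negative is upstream), within 11 marked positions in chr1:173885722-173887683. SERPINF2 was the most densely marked window, with 27 of 158 positions (17.1%, 11.6 to 23.9). Of its 9 trivalent positions, 3 lay by its own start, from 156 to 543 bp downstream. The other 6 lay by the listed start of SERPINF1, the next serpin gene on chromosome 17. They were in a stretch from 19.0 to 21.7 kb downstream, which held 12 of the 27 marked positions. Upstream of SERPINF2, from -7.1 to -5.9 kb, 5 positions carried acetylation without H3K4me3.

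SERPIND1 had 16 marked positions in chr22:21126642-21131816, which included 3 trivalent positions from 148 to 478 bp downstream of its start. From 16.2 to 17.8 kb downstream, in the span shared with PI4KA and SNAP29, lay a stretch of 8 marked positions, all with H3K27ac alone. The other 4 trivalent positions of its window lay by the starts of TMEM191A (0.67 FPKM) and of SNAP29 and PI4KA. SERPING1 had 6 marked positions of 197 (3.05%, 1.13 to 6.51), the lowest share of the 10, and 1 trivalent position, 279 bp downstream. SERPING1 was also the lowest in expression.

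**Figure D3:**
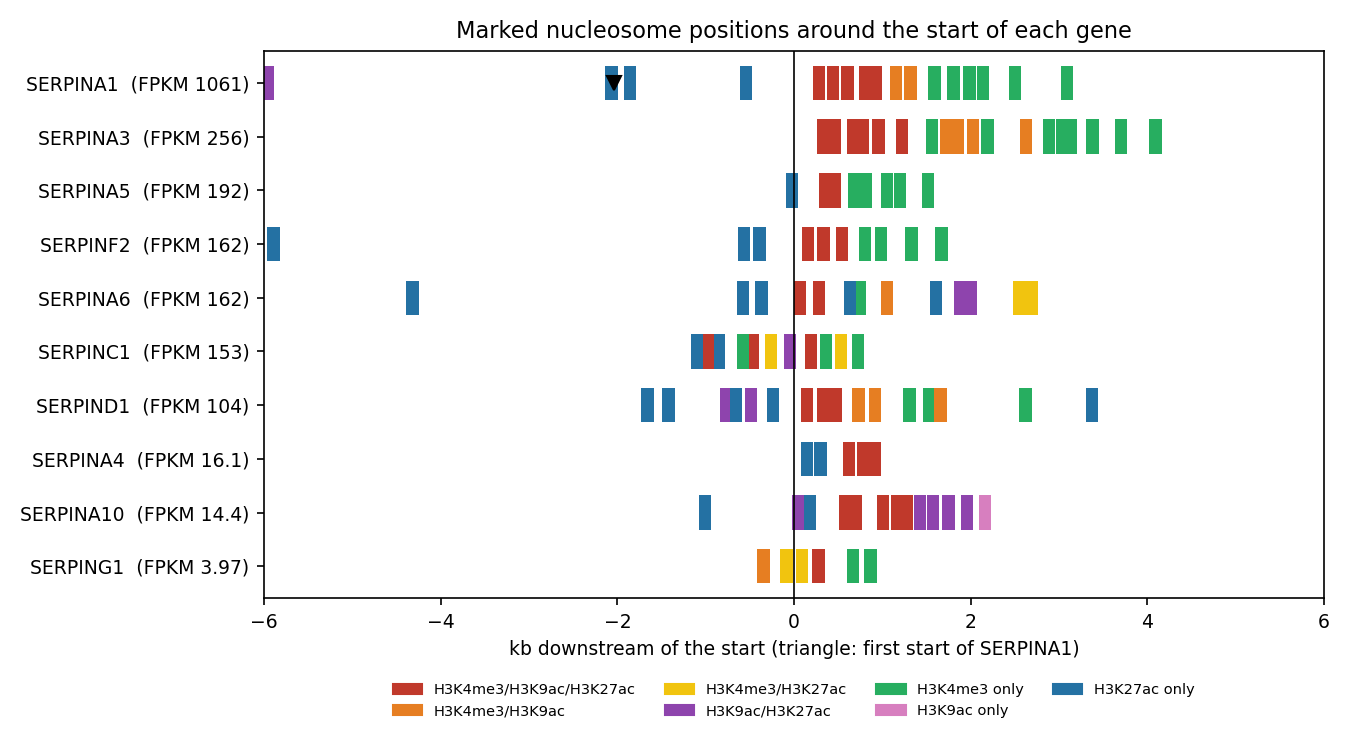
Marked nucleosome positions (bars of 140 bp) within 6 kb of the start of each hepatic serpin gene, from the highest to the lowest mean FPKM. The x axis is kb downstream of the start used, colours give the exact set of marks, and the triangle is the first start of SERPINA1, where H3K27ac alone was called.

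The order of marks along the gene was alike in the genes that had both kinds. Within 6 kb downstream of the start, positions with H3K4me3 alone lay farther on average than trivalent positions in 8 of 8 genes, against 87.6% of 3530 named genes with a locus of their own and both kinds. The starts of SERPINA1, SERPINA3 and SERPIND1 were set by distance with the marks in view, whereas the 3530 genes were counted from listed starts. The mean distance rose from 614 bp for trivalent positions to 2190 bp for H3K4me3 alone in SERPINA1, from 738 to 3000 bp in SERPINA3 and from 321 to 1820 bp in SERPIND1. In SERPINA6 they were 180 and 747 bp, and in SERPINC1 190 and 545 bp. SERPINA4 and SERPINA10 had no H3K4me3 alone there. With a background of 87.6%, this order does not set the hepatic serpin genes apart.

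Over the 10 genes, Spearman's rho of FPKM and trivalent positions over the window was 0.52 and Pearson's r with log2(FPKM + 0.01) was 0.38, given as a description, since all points share the same libraries and some windows overlap. Counted within 2 kb of the start, rho was -0.29 with the listed starts and 0.38 with the starts set by distance, so its sign depended on the starts of 3 genes. SERPINA5 and SERPINA6 had 2 trivalent positions each within 2 kb and were at 191.8 and 162.0 FPKM, whereas the median of named genes with 2 was 10.7 FPKM. SERPINA4 had 3 and was at 16.1 FPKM, and the median of genes with 3 was 12.3 FPKM. SERPINA1 had 5 by its second start, where the median was 18.5 FPKM. By its listed start it had 0, and the median of genes with 0 was 0.0157 FPKM. These medians are of genes with a locus of their own, counted from listed starts, so the count by the second start is not a like one.

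**Figure D4:**
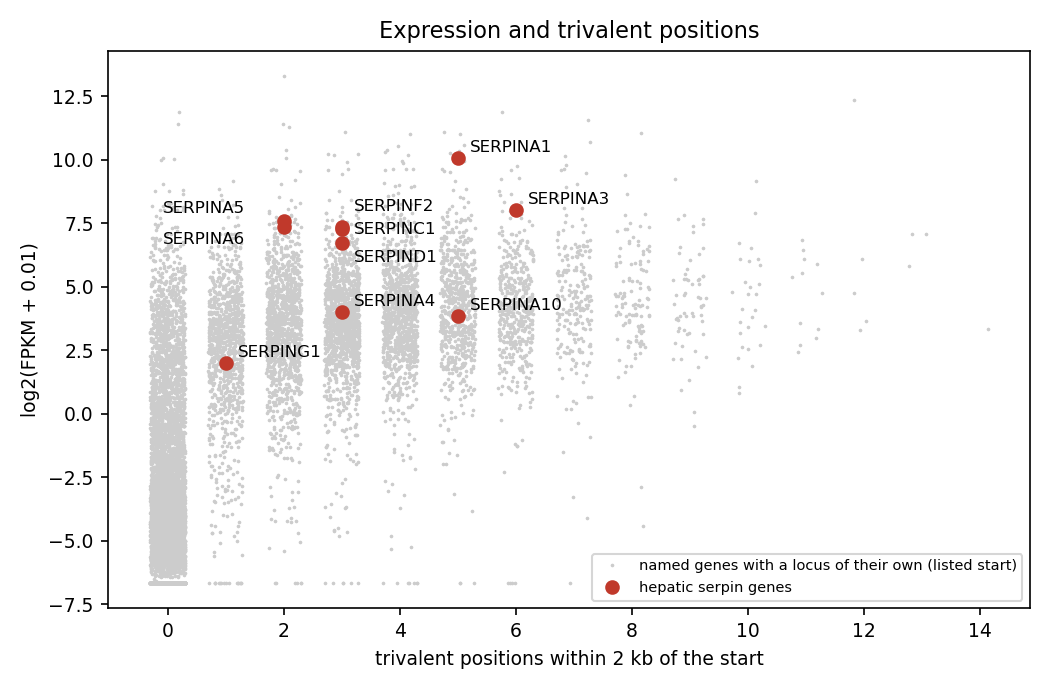
Trivalent positions within 2 kb of the start (x axis, grey points jittered) and log2(FPKM + 0.01) (y axis) for 14228 named genes with a locus of their own, counted from the listed start (grey), and for the 10 hepatic serpin genes, counted from the start used (red). The 3 lowest, SERPINA4, SERPINA10 and SERPING1, lie within the grey columns, and the other 7 lie in their upper part.

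The 6 hepatic serpin genes on chromosome 14 lie in the SERPINA cluster. From the lower end of PPP4R4 to the upper end of GSC, chr14:94640632-95236545, the 595.9 kb held 3160 positions, of which 147 (4.65%, 3.94 to 5.45) were marked. H3K27ac alone was on 54 and trivalent positions were 34. A single position carried H3K27me3, together with H3K4me3, at the start of GSC, a developmental transcription factor gene that was at 0.00758 FPKM. A single position carried H3K9me3.

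Marked positions were unevenly placed along the cluster. SERPINA11, between SERPINA1 and SERPINA4, was at 22.2 FPKM and had 7 trivalent of 12 marked positions within 2 kb of its start. Its neighbour SERPINA9 was at 0.0491 FPKM, and 0 of 21 positions within 2 kb of its start were marked. SERPINA12 was at 4.02 FPKM as the sum of 3 entries and had 1 trivalent position in its span. SERPINA13 was listed at 0, and 0 of the 35 positions in its locus were marked. Between the spans of SERPINA12 and SERPINA4, 8 marked positions in chr14:94987702-94989196 carried H3K27ac alone. From SERPINA3 to GSC, over 142.3 kb, 4 of 752 positions were marked.

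**Figure D5:**
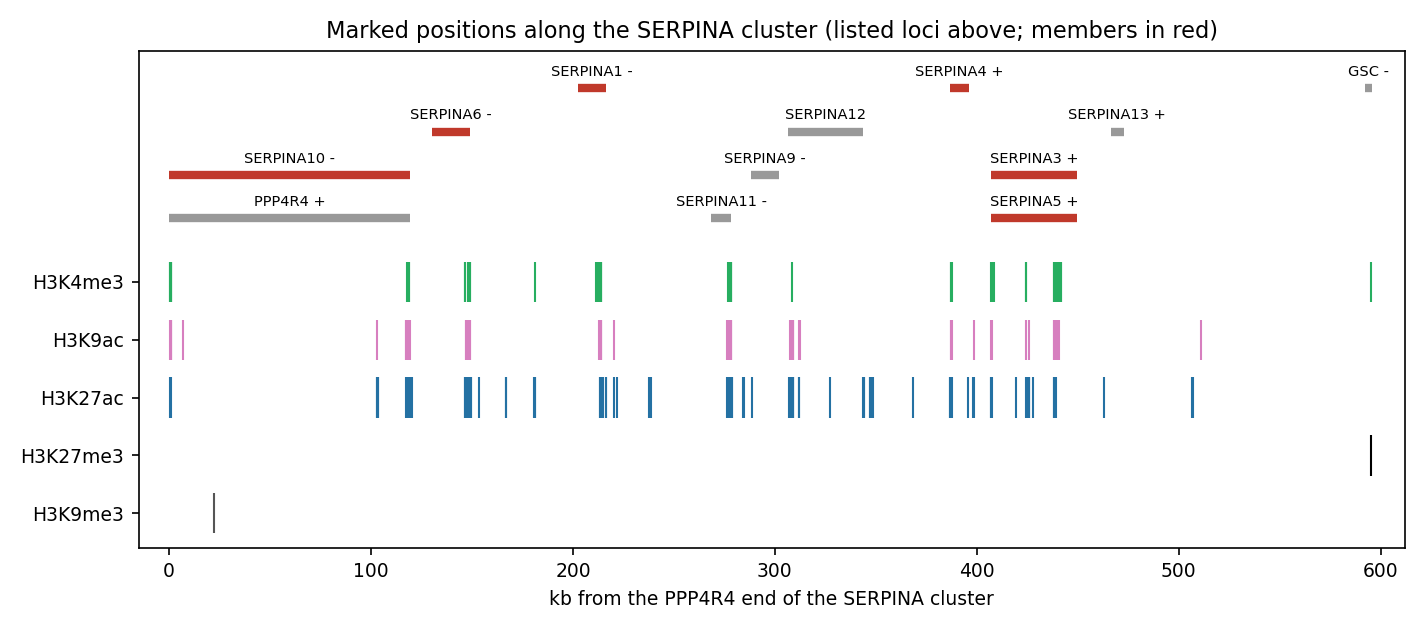
Marked positions of each modification (ticks) along the SERPINA cluster, in kb from the end at PPP4R4, with listed loci above (hepatic serpin genes in red, strand after the symbol). H3K27ac also has ticks between the loci, SERPINA13 has no tick, and H3K27me3 and H3K9me3 have 1 tick each.

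The rest of the serpin family differed in level. Of 26 other serpin genes, 25 were in the table, 13 were expressed, 8 were listed at 0 and their median was 1.32 FPKM. The highest were AGT, which encodes angiotensinogen, at 432 FPKM, SERPINF1, which encodes an antiangiogenic factor, at 384 FPKM, SERPINA7, which encodes thyroxine-binding globulin, at 160.4 FPKM, and SERPINH1, a collagen chaperone, at 54.4 FPKM. Trivalent positions were found over 14 of the 25 and H3K27me3 over 2, SERPINB7 and SERPINF1, the latter listed with a locus that RPA1 shares.

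Genes of the target proteases and their partners were lower. Of 24, 16 were expressed, with a median of 3.03 FPKM, and 6 reached 10 FPKM. The highest were F2, which encodes prothrombin and is not SERPINF2, at 141.9 FPKM, PROS1 at 51.6 FPKM, PROC at 48.6 FPKM and F10 at 33.6 FPKM. Trivalent positions were over 13 of the 24, H3K27me3 over 7, and 5 genes were listed at 0. The neutrophil proteases ELANE, CTSG and PRTN3, targets of the products of SERPINA1 and SERPINA3, were all listed at 0.

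Of 13 genes for liver transcription factors and for acute-phase signalling, receptor subunits included, 12 were expressed, with a median of 14.1 FPKM, and 12 had a trivalent position. The highest were IL6ST, the signalling subunit of the interleukin-6 receptor, at 78.5 FPKM, CEBPA at 71.0 FPKM, HNF4A at 69.3 FPKM and FOXA1 at 38.9 FPKM. NR5A2 was the lowest, at 0.336 FPKM.

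The genes most like SERPINA1 were sought over 6 readouts, the percentile of FPKM and of the number of positions of each of the 5 marks over the locus plus 10 kb. By Euclidean distance of percentiles in the same sample, the nearest were TUBB at 3.05, RPS2 at 4.62, SRSF2 at 5.25, ATPIF1 at 6.38 and BAT1 at 6.74. All of these but ATPIF1 share their listed coordinates with other loci. None of the other 9 hepatic serpin genes was near. The closest, SERPINF2, ranked 1282 and SERPING1 ranked 9533.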

How the data were processed

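Nucleosome positions were mapped by native MNase-Seq, 5 histone modifications by ChIP-Seq and expression by RNA-Seq, with 1 sample per assay. The authors called positions with DANPOS and peaks on them with NUCLIZE. They deposited coordinates without heights or reads. The study's methods state sequencing depth per library, but the lists do not show the coverage of any one position or peak. Every count of marked and unmarked positions rests on these lists as deposited. They hold 203848 marked positions, far fewer than the nucleosomes with histone modification that the paper reports. A position unmarked here may thus be marked in the study's own counts, and the reason for the difference was not tested. They deposited expression as FPKM in 2 columns, in the layout of Cuffdiff, with p-values, q-values and fold changes of their own comparison of the columns, which were not used. The submitters' processing notes name hg19, BWA, TopHat2 2.1.0, Bowtie, HOMER 4.7 and edgeR, with no roles.

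The mean of both columns was used, entries of a symbol were summed, and percentiles were taken over 21913 named genes. All 319086 peaks matched the position whose identifier they carry, among 14217405 positions of 140 bp, of which 203848 were marked. A position was counted in a window by its midpoint. Locus starts in the table count from 0, as 84.9% of 345 olfactory receptor loci have a length divisible by 3 on this reading. Strand came from the order of locus numbering, which gave the RefSeq strand for 97.6% of 13428 genes. Stretches join marked positions less than 1000 bp apart. Shares have exact Clopper-Pearson intervals. The counting was tested on simulated data.

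The genes and lists were chosen with earlier results of these data known. Genes that are not members were named by a rule: up to 4 highest of each list and those in the chromosome 14 cluster, genes within 10 kb of a member, and the 5 most like SERPINA1. Single markers and ELANE, CTSG, PRTN3, NR5A2 and SERPINB7 were named after their values were seen. One gene and the letters searched for it are not reported here. Alternatives were other FPKM limits, windows, overlaps, each run alone, the widest entry of a symbol and a pseudocount of 1. Versions were matplotlib 3.10.9, scipy 1.17.1, pandas 2.3.3, numpy 2.4.6 and Python 3.11.15.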

Additional observations from a re-analysis of the deposited data

How the results depend on the processing

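Of 53 recomputed values, 43 were classed as the same, 9 as moved and 1 as reversed. Values classed as the same could still differ in size. Over the loci alone 145 positions were marked, against 193, and within 2 kb of the listed starts 8 genes had a trivalent position, against 10. Within 2 kb of the listed starts, 66 positions were marked, 37.9% of those there, and 0 genes had H3K9me3. Within 2 kb of the starts set by RefSeq distances, an alternative chosen after seeing the data, 95 were marked, 48.2%, and 0 genes had H3K9me3. These windows hold fewer positions by construction. With 20 kb on either side, 1 gene had H3K27me3. The rank correlation of FPKM and trivalent positions was -0.29 within 2 kb of the listed starts, 0.5 over the 5 genes whose windows do not overlap and 0.38 with the starts set by distance, and the cause was not tested. Leaving out positions within 2 kb of another gene's start, also chosen after seeing the data, left 167 marked positions, 5.53%. The number of expressed genes was 9 or 10 and their median 156.6 to 158.0 FPKM in every alternative run for them. Peak lists give no heights, so no stricter calling threshold could be set, and an unmarked position may be one that the depth could not show. No paired analysis was possible because each assay has 1 sample and there are no groups.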
